A study of Homo sapiens with 6 samples.

Results

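The BCL2 family decides at the outer mitochondrial membrane whether a cell survives or enters intrinsic apoptosis. The genes described here are 10 members of this family, chosen by symbol from the 36601 genes of the count table: the anti-apoptotic genes BCL2, BCL2L1 (BCL-XL), MCL1 and BCL2A1 (BFL-1), the pore-forming effectors BAX and BAK1 (BAK), and the BH3-only genes BCL2L11 (BIM), BBC3 (PUMA), PMAIP1 (NOXA) and BID. All 10 had a row in the table, and 9 passed the filter of more than 1 CPM (the count of a gene scaled to a common library size) in at least 2 libraries and were tested.

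The libraries were made from NK92, a lymphoma line of human NK cells that depends on IL-2 for growth. One group stably carried a control shRNA (shCtrl, 3 libraries) and the other an shRNA against miR155HG (shmiR155HG, 3 libraries), the long non-coding RNA whose transcript also holds the miR-155 hairpin. For 12 h before RNA was taken, both groups were kept in IL-2 at 1000 U/mL plus IL-12 at 10 ng/mL, so every value below is from cytokine-treated cells. Both groups come from 1 cell line, and the sources used here do not state whether a transduced line was a clone or a pool, or whether the libraries came from separate cultures. If they did not, the p-values measure only the spread between these samples, which may be technical. Separate transductions are not stated either, so an effect of the shRNA cannot be told apart from a difference between transduced lines. The comparison addresses whether the mRNA levels of survival and death genes differed when miR155HG was knocked down.

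Anti-apoptotic BCL2 proteins hold BAX and BAK in check, and BH3-only proteins bind and neutralize them or activate the effectors directly. Each BH3-only protein has preferred partners: NOXA binds mainly MCL1 and BFL-1, whereas BIM and PUMA bind all the survival proteins. Once active, BAX and BAK permeabilize the outer membrane, cytochrome c is released and caspases are activated. NK cells rely on cytokine signals, above all IL-15 and IL-2, to maintain BCL2 and MCL1, and the loss of MCL1 in NK cells is lethal to them. Many members are controlled after transcription (MCL1 and NOXA proteins turn over fast, BID is activated by cleavage), which mRNA counts do not report.

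A library held 33454786 to 39157264 counts in all. The targeted gene MIR155HG (ENSG00000234883) was counted 73, 67 and 62 times in the control libraries and 28, 19 and 10 times in the knockdown libraries, so the groups did not overlap, in the direction of the labels (log2 fold change −1.78, SE 0.43, edgeR quasi-likelihood adjusted p = 0.0045). MIR155HG lies near the filter: it was over 1 CPM only in shCtrl (1.59 to 1.88 CPM, against 0.299 to 0.730 CPM in shmiR155HG). In the treatment labels of shmiR155HG replicates 2 and 3 the number in the name of the gene differs from that in the titles, and they were grouped by title. Of 8 NK cell markers, 7 were above 1 CPM in all 6 libraries (CD7 was under it), and their summed level was 3283 to 3358 CPM in shCtrl and 3445 to 3532 CPM in shmiR155HG. These markers did not move together: IL2RB, a receptor chain for IL-2, rose from 1006 ± 44.9 to 1270 ± 17.8 CPM, while GZMA fell from 558.1 ± 19.6 to 461.8 ± 17.2 CPM and PRF1 from 327.6 ± 10.95 to 285.5 ± 10.3 CPM (SD, n = 3, adjusted p = 1.35e-08, 2.25e-06 and 0.000419). T cell markers were above 1 CPM for 2 of 7 genes (CD3E and TRAC), with CD3D, CD3G, CD4, CD8A and CD8B under it, and summed to 397.8 to 409.4 CPM against 399.8 to 417.4 CPM. Of 5 B cell markers, PAX5 alone was above 1 CPM in every library, and the summed level was 229.4 to 264.6 CPM in shCtrl and 341.0 to 344.2 CPM in shmiR155HG. Myeloid markers were above 1 CPM for 3 of 5 genes, with CD14 and LYZ under it, and summed to 134.7 to 151.8 CPM against 108.7 to 116.2 CPM, and 0 of 4 erythroid markers were above 1 CPM. The summed level of 71 histone genes, most of whose mRNAs lack a poly(A) tail, was 80.2 to 86.2 CPM in shCtrl and 142.8 to 159.1 CPM in shmiR155HG, and the mitochondrial share was 2.13% to 2.18% against 2.35% to 2.48%. The part of these shifts in the results below was not tested.

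The mature miR-155 sequence is shown because its precursor lies in the silenced transcript, and the capitals mark the seed (bases 2 to 8), which pairs with the site AGCATTA in mRNA.
hsa-miR-155-5p: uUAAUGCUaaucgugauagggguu
It lies on the plus strand at chr21:25573983-25574006 (RefSeq, GRCh38.p14). The site was absent from the canonical 3′UTR of all 10 members, while 2056 of 18920 genes with a 3′UTR (10.9%) held it. In promoter windows of 300 bases (RefSeq, 250 before to 50 after the start), the STAT pattern TTCNNNGAA, which reads the same on both strands, was searched because IL-2 and IL-12 signal through STAT proteins. Among the 9 members with a window (MCL1 has no entry) it was found once, in BCL2A1, and 2689 of 35116 windows (7.66%) held it. That share is per window and not per gene: BID has 5 windows, BCL2L1 has 2 and each other member has 1. The match (capitals) is at position −168 from the start of transcription, and the stretch printed is chr15:79971346-79971374 on the minus strand.
BCL2A1 promoter: aggaagtggcTTCTCTGAAacattttcct
A match in letters is a description and not evidence of binding, and no match says only that these letters are not in the stretch searched.

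Of the 9 members tested, MCL1 was higher in shmiR155HG cells and none was lower by edgeR's quasi-likelihood test at an adjusted p under 0.05. This is 1 of 9 (11.1%) beside 7.26% of the 12263 genes tested that were higher, and 0 of 9 beside 8.02% that were lower, so the share of members called was near that of all genes. At an unadjusted p under 0.05, 2 members were higher (MCL1 and BBC3) and 2 were lower (BAX and PMAIP1), beside 13.2% of all genes tested that were higher and 14.1% that were lower. DESeq2, limma-voom and the exact test under the rule of the study likewise called 0 members lower. That exact test also called 0 members higher, while DESeq2 and limma-voom called MCL1. BAX was called lower with a correction for GC content, and PMAIP1 without shCtrl replicate 3. These are bulk samples, in which a change in the number of cells of a kind cannot be told apart from a change in RNA per cell. The median log2 fold change was 0.041 over the 9 members and 0.00097 over all genes tested. The groups did not overlap for 4 members, of which 2 were higher in all shmiR155HG libraries (MCL1 and BCL2L1, 22.2% of the members tested, beside 15.2% of all genes) and 2 were lower (BAX and PMAIP1, 22.2%, beside 15.6%).

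Of the 4 anti-apoptotic genes, MCL1 rose, BCL2 and BCL2L1 did not pass the test, and BCL2A1 was too low to be tested. MCL1 (ENSG00000143384, chr1:150560895-150579738, minus strand, hg38), whose short-lived protein guards BAK and binds BIM and NOXA, is annotated with 3 exons and a 3′UTR of 2817 bases in the canonical transcript. Its level was 261.9, 273.8 and 264.9 CPM in shCtrl replicates 1, 2 and 3 and 300.8, 296.4 and 296.6 CPM in shmiR155HG. The 3 shmiR155HG libraries lay above all shCtrl libraries and within a narrower range. The mean rose from 266.8 ± 6.19 to 297.9 ± 2.45 CPM (SD, n = 3), a difference of 11.7% (95% interval 6.16% to 17.4%), which was 0.16 on the log2 scale (SE 0.036, adjusted p = 0.0023). The log2 fold change lay between 0.15 and 0.18 in all 16 alternatives, with adjusted p values from 8.91e-05 to 0.0178, and MCL1 was called in 15 of them. Under the rule of the study, an exact test with a fold of more than 1.2, the rise was too small to be called.

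BCL2L1 (ENSG00000171552, chr20:31664452-31723989, minus strand), which encodes the survival protein BCL-XL and, through another splice form, the pro-death BCL-XS, had 100.7, 100.1 and 97.4 CPM in shCtrl and 103.3, 104.8 and 109.7 CPM in shmiR155HG. The groups did not overlap, but the difference did not pass the test (log2 fold change 0.09, SE 0.050, adjusted p = 0.245), and its 95% interval ran from −0.754% to 14.3%. With a correction for GC content the log2 fold change was 0.030. Exons of the antisense gene ABALON share 41.3% of the exon bases of BCL2L1. ABALON had 48 to 149 counts and BCL2L1 had 3653 to 3989. Since strand use in the counting is not stated, reads in the shared bases cannot be assigned to one of them.

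BCL2 (ENSG00000171791, chr18:63123346-63320128, minus strand), the founding survival gene of the family, had 83.0, 77.9 and 86.3 CPM in shCtrl and 85.1, 83.1 and 80.0 CPM in shmiR155HG. The shmiR155HG libraries fell within the range of the control libraries. The means were 82.4 ± 4.24 and 82.7 ± 2.58 CPM (SD, n = 3), and the 95% interval of the difference was −7.43% to 8.88% (adjusted p = 0.969).

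BCL2A1 (ENSG00000140379, chr15:79960892-79971196, minus strand), an NF-κB-induced survival gene, had only 26, 12 and 21 counts in shCtrl and 37, 17 and 6 in shmiR155HG. This was 0.329 to 0.668 CPM against 0.179 to 0.964 CPM, with the shmiR155HG libraries both above and below all controls, and a difference was not detectable at this depth. Without the filter its log2 fold change was 0.05 with an SE of 0.68.

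**Figure D1:**
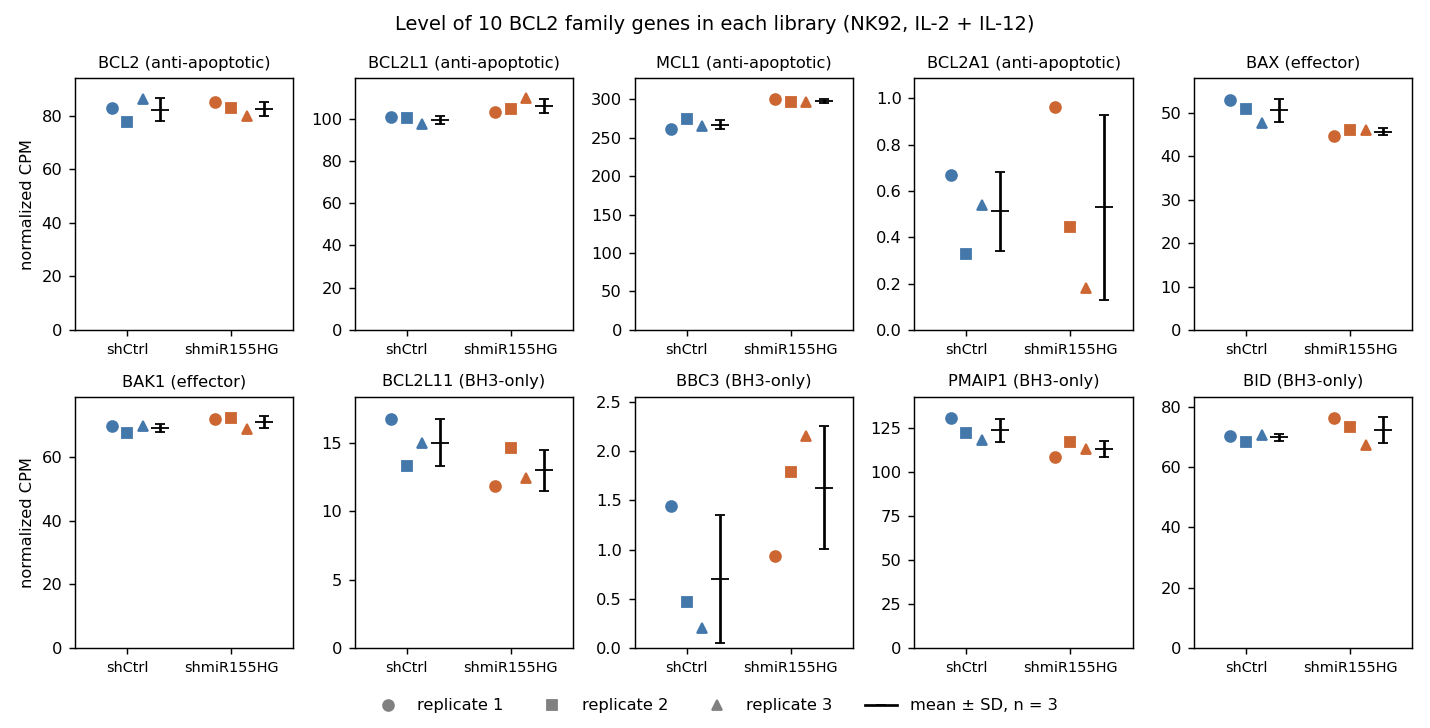
Normalized CPM (vertical axis from 0, its own scale in each panel) of the 10 BCL2 family genes in shCtrl and shmiR155HG NK92 libraries. Symbols mark the replicate number and the bar gives mean ± SD of 3 libraries, and the groups are apart for MCL1, BCL2L1, BAX and PMAIP1.

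Neither effector passed the test. BAX (ENSG00000087088, chr19:48954815-48961798, plus strand), a cytosolic protein that inserts into the outer membrane on activation, had 52.98, 51.0 and 47.7 CPM in shCtrl and 44.7, 46.1 and 46.0 CPM in shmiR155HG. Every knockdown library was lower than every control library, the nearest by less than 2 CPM. The log2 fold change was −0.15 (SE 0.068, 95% interval of the difference −18.1% to −0.623%, unadjusted p = 0.0378, adjusted p = 0.153). BAX was called lower in 1 of the 16 alternatives, the GC correction added after the data were seen, at −0.23 on the log2 scale and adjusted p = 0.0214 (range over the alternatives 0.0214 to 0.417). The canonical BAX transcript has a GC content of 60.8%.

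BAK1 (ENSG00000030110, chr6:33572547-33580293, minus strand), the effector that resides in the membrane and is held by MCL1 and BCL-XL, had 69.5, 67.4 and 69.6 CPM in shCtrl and 71.7, 71.9 and 68.7 CPM in shmiR155HG. The ranges overlapped and the 95% interval of the difference was −5.30% to 11.8% (adjusted p = 0.712). Its sign depended on the GC correction, under which the log2 fold change was −0.030 against 0.041 without it.

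None of the 4 BH3-only members passed the test. PMAIP1 (ENSG00000141682, chr18:59899996-59904305, plus strand), the NOXA gene, whose product drives MCL1 to degradation, had 131.1, 122.3 and 118.3 CPM in shCtrl and 108.6, 117.5 and 113.4 CPM in shmiR155HG. The groups were separate by less than 1 CPM between the lowest shCtrl and the highest shmiR155HG library. The log2 fold change was −0.13 (SE 0.050, 95% interval of the difference −14.9% to −2.01%, adjusted p = 0.0754). Without shCtrl replicate 3, the control library with the lowest value, it was −0.16 with an adjusted p of 0.0357 and was called (range over the alternatives 0.0357 to 0.34). It was −0.088 without shCtrl replicate 1, the control library with the highest value, and −0.075 with the GC correction.

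BBC3 (ENSG00000105327, chr19:47220822-47232766, minus strand), which encodes PUMA, was scarce, with 56, 17 and 8 counts in shCtrl and 36, 68 and 72 in shmiR155HG. In CPM these were 1.44, 0.466 and 0.205 against 0.938, 1.79 and 2.15, so shCtrl replicate 1 lay above shmiR155HG replicate 1. The log2 fold change was 1.198 with a wide 95% interval of 0.11 to 2.28 (SE 0.52, adjusted p = 0.137). The result depended on 1 library, and without shCtrl replicate 1 the log2 fold change was 2.27 and the adjusted p 0.00657, and over all alternatives the adjusted p ran up to 0.357.

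BCL2L11 (ENSG00000153094, chr2:111119378-111168444, plus strand), the BIM gene, which FOXO factors induce when cytokine signals are withdrawn, had 16.7, 13.3 and 14.99 CPM in shCtrl and 11.8, 14.6 and 12.4 CPM in shmiR155HG. The groups overlapped (log2 fold change −0.21, SE 0.13, adjusted p = 0.318, 95% interval of the difference −28.2% to 4.09%). The log2 fold change was −0.12 without shCtrl replicate 1 and −0.31 without shmiR155HG replicate 2. On the opposite strand, MIR4435-2HG shares 10.8% of the exon bases of BCL2L11 and had 1782 to 2379 counts, more than the 416 to 650 counts of BCL2L11. Whether the counting used strand is not stated, so reads in the shared bases cannot be assigned to one of them.

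BID (ENSG00000015475, chr22:17734138-17774770, minus strand), which is cleaved by caspase-8 or granzyme B to its active form, had 70.3, 68.4 and 70.7 CPM in shCtrl and 76.0, 73.1 and 67.4 CPM in shmiR155HG. The groups overlapped, since shmiR155HG replicate 3 was the lowest of all 6 libraries, and the 95% interval of the difference was −5.10% to 12.7% (adjusted p = 0.667).

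**Figure D2:**
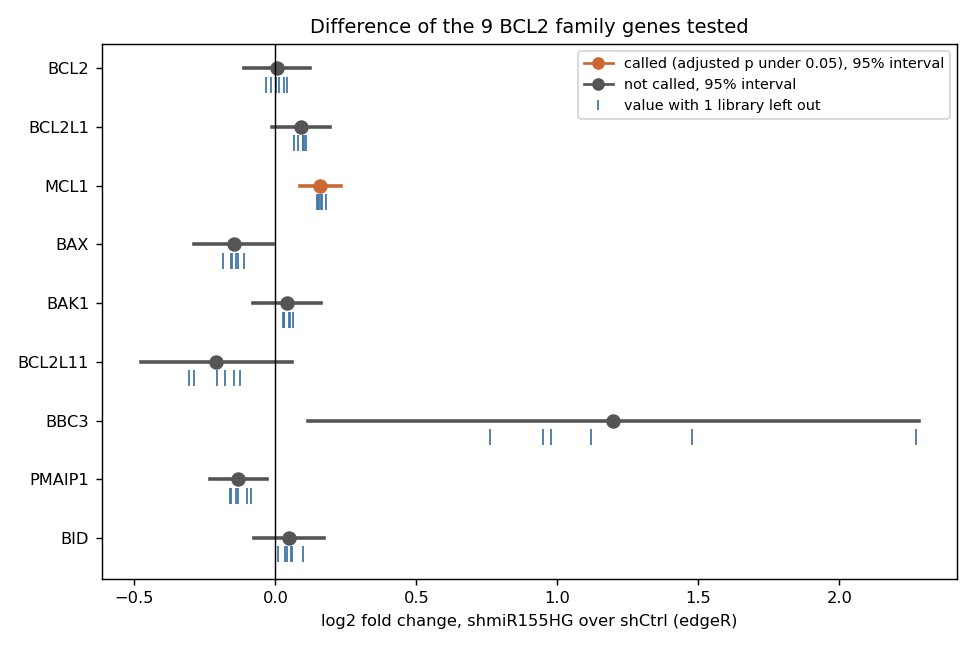
Log2 fold change of shmiR155HG over shCtrl (horizontal axis, edgeR) for the 9 genes tested, with 95% intervals, and below each the values with 1 of the 6 libraries left out. MCL1 is the one gene called, and BBC3 has the widest interval, with values from 0.76 to 2.27 when a library is left out.

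Levels were compared between genes as CPM per kb of the canonical transcript. In shCtrl cells, MCL1 (67.6 ± 1.57), PMAIP1 (65.3 ± 3.43) and BAX (63.6 ± 3.35 CPM per kb, SD, n = 3) stood at the top, and neighbours in this order overlapped between libraries. BCL2L1 followed at 38.6 ± 0.677 CPM per kb, then BID at 32.1 ± 0.573 and BAK1 at 31.7 ± 0.580, which overlapped each other. BCL2 was at 12.0 ± 0.616 CPM per kb, lower than both MCL1 and BCL2L1, and BCL2L11 at 2.94 ± 0.335. BCL2A1 (0.656 ± 0.220) and BBC3 (0.381 ± 0.352 CPM per kb) were lowest and overlapped. In shmiR155HG cells, MCL1 was at 75.4 ± 0.621, PMAIP1 at 59.6 ± 2.35 and BAX at 57.4 ± 0.998 CPM per kb, and MCL1 stood above all libraries of PMAIP1. The order depended on the length used: with the union of all annotated exons in place of the canonical transcript, PMAIP1 ranked 1, MCL1 ranked 2, BAK1 ranked 3, BCL2L1 ranked 4 and BAX ranked 5.

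**Figure D3:**
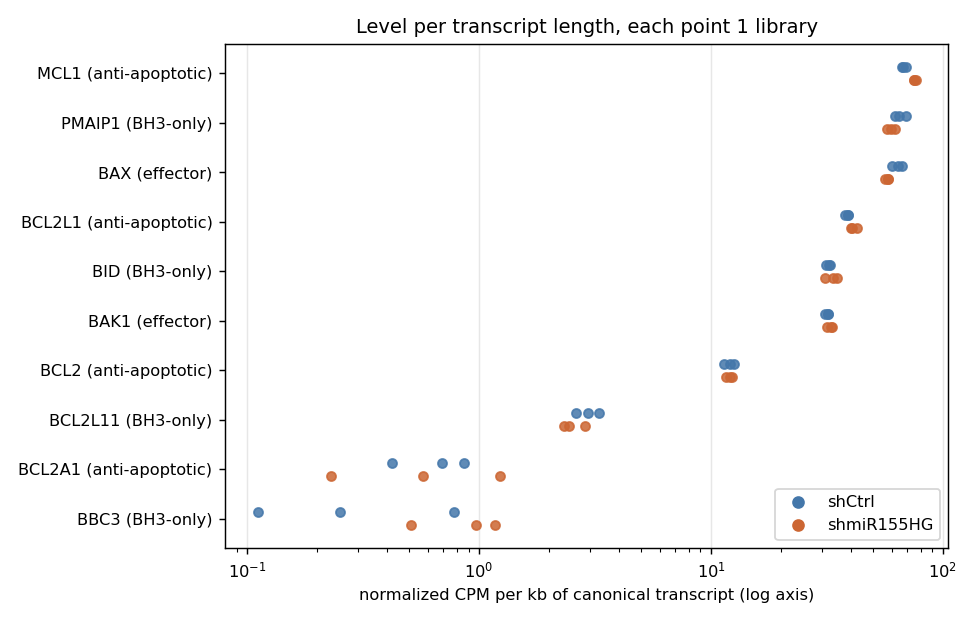
Normalized CPM per kb of canonical transcript (horizontal log axis) of the 10 genes, each point 1 library, in shCtrl and shmiR155HG NK92 cells. MCL1, PMAIP1 and BAX lie at the top, and BCL2A1 and BBC3 lie near or below 1 CPM per kb.

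Per length, MCL1 made up 56.9% ± 0.880 of the summed level of the 4 anti-apoptotic genes in shCtrl and 58.3% ± 0.343 in shmiR155HG (SD, n = 3). BCL2L1 made up 32.5% ± 0.511 and 31.8% ± 1.001, and BCL2 10.1% ± 0.598 and 9.30% ± 0.290. The anti-apoptotic share of all 10 genes per length was 36.7%, 38.2% and 38.3% in shCtrl and 41.3%, 40.3% and 41.3% in shmiR155HG, and these ranges did not overlap. BMF, a BH3-only gene outside the 10, rose by 51.7% and is in neither this share nor the ratios below. The share is computed from the levels above, in which the groups were apart for MCL1 and BCL2L1 (higher) and for BAX and PMAIP1 (lower). It adds no further observation. It also depends on the length used, which for BAX is 795 bases in the canonical transcript and 2587 bases over all annotated exons. The share was not tested, and it does not give the balance of the whole family.

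Ratios of 2 genes within a library do not depend on library scaling. The pairs were chosen after the values had been seen and are given without a test. The counts of MCL1 over those of PMAIP1, whose protein is an antagonist of MCL1, gave 1.998, 2.238 and 2.24 in shCtrl and 2.77, 2.52 and 2.62 in shmiR155HG, with no overlap. BCL2L1 over BAX gave 1.90, 1.96 and 2.04 in shCtrl and 2.31, 2.27 and 2.38 in shmiR155HG, also apart. These separations were fixed by the levels above, with numerators higher and denominators lower in every shmiR155HG library. They add no further observation. BCL2 over BAX (1.53 to 1.81 against 1.74 to 1.90) and MCL1 over BCL2L11 (15.7 to 20.6 against 20.3 to 25.4) overlapped.

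**Figure D4:**
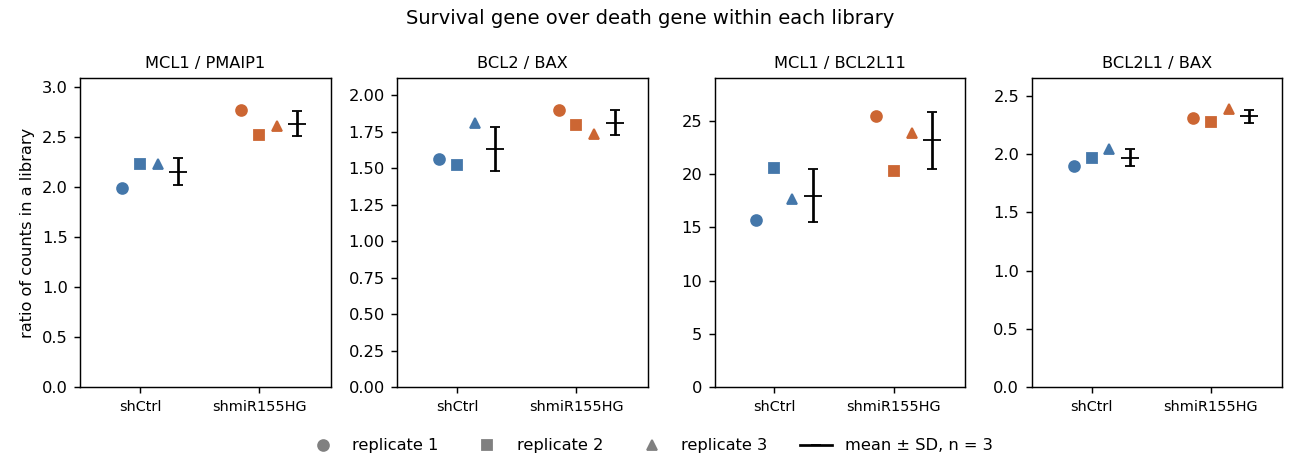
Ratio of the counts of a survival gene to those of a death gene in each library (vertical axis from 0, its own scale in each panel), with mean ± SD of 3 libraries per group. MCL1 over PMAIP1 and BCL2L1 over BAX are higher in all 3 shmiR155HG libraries than in any shCtrl library, and the other pairs overlap. The higher ratios follow from the levels of these genes, since the groups are apart for each gene.

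The genes with the pattern most like that of MCL1 over the 6 libraries were BET1L, RELCH and TAP1, by the root mean square difference of centred log2 CPM, among the 9721 genes whose mean reached 5 CPM. The differences were 0.0143, 0.018 and 0.0204, against a median of 0.126 over the genes compared. BET1L, a SNARE protein of the Golgi, had 46.3 ± 0.664 CPM in shCtrl and 52.3 ± 0.231 CPM in shmiR155HG (SD, n = 3), and RELCH had 39.1 ± 1.09 and 44.4 ± 0.483 CPM, with adjusted p values of 0.0658 and 0.0812. TAP1, a peptide transporter of antigen presentation, rose from 324.8 ± 3.47 to 354.4 ± 1.05 CPM (log2 fold change 0.13, SE 0.034, adjusted p = 0.00985).

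Of 43 genes that act with the members, 36 were tested, of which 2 were higher (5.56%, beside 7.26% of all genes) and 3 were lower (8.33%, beside 8.02%), with a median log2 fold change of −0.0094. These shares were near those of all genes. Among the 13 other genes of the family, 8 were tested and 1 was called. This was BMF (ENSG00000104081, chr15:40087890-40108892, minus strand), a BH3-only gene whose protein binds BCL2 family survival proteins and is released from the cytoskeleton under stress. BMF had 76.3, 85.3 and 85.4 CPM in shCtrl and 126.2, 117.5 and 130.9 CPM in shmiR155HG. All shmiR155HG libraries were above all controls, and the level rose by 51.7% (95% interval 40.2% to 64.2%, log2 fold change 0.60, SE 0.055, adjusted p = 6.86e-09). BMF was called in all 16 alternatives, with log2 fold changes of 0.55 to 0.64, and its canonical 3′UTR holds no miR-155 seed site. The survival gene BCL2L2 (BCL-W, adjusted p = 0.53) and the BH3-only gene BAD (adjusted p = 0.936) did not pass the test. BCL2L15 was low, with 2.66 ± 0.396 CPM in shCtrl and 1.47 ± 0.320 CPM in shmiR155HG (SD, n = 3), and did not pass either (log2 fold change −0.86, adjusted p = 0.0767), although the rule of the study called it lower. BCL2L10, BOK, BIK, HRK and BCL2L14 were below the filter.

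Downstream of the mitochondria, 0 of 5 tested genes of the apoptosome and caspases were called, beside 7.26% of all genes that were higher and 8.02% that were lower. The groups did not overlap for 2 of them, APAF1 and CASP2, both lower (40%, beside 15.6% of all genes). APAF1, the scaffold of the apoptosome, had 16.5 ± 0.892 CPM in shCtrl and 13.7 ± 1.36 CPM in shmiR155HG (SD, n = 3, adjusted p = 0.146). CASP2 had 202.3 ± 3.59 and 189.0 ± 3.62 CPM (SD, n = 3, quasi-likelihood adjusted p = 0.0872). Of the 9 mitochondrial factors and inhibitors of apoptosis, all tested, BIRC2 was higher (11.1%, beside 7.26% of all genes). BIRC2 (cIAP1), a ubiquitin ligase of TNF receptor signalling, had 67.6, 70.8 and 63.6 CPM in shCtrl and 74.8, 79.2 and 81.3 CPM in shmiR155HG, with no overlap (log2 fold change 0.22, SE 0.061, adjusted p = 0.0128). It was not called in 4 of 16 alternatives, among them those without shCtrl replicate 3, shmiR155HG replicate 2 or shmiR155HG replicate 3. The caspase inhibitor XIAP (adjusted p = 0.433) and BIRC5 (survivin, adjusted p = 0.158) did not pass. On the death receptor route that leads to BID, 0 of 4 genes (FADD, CASP8, CASP10, CFLAR) were called. With so few genes in a list, 0 called is not apart from the shares of all genes.

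Among 10 tested regulators of the members, 0 were higher and 3 were lower by edgeR's quasi-likelihood test, beside 7.26% and 8.02% of all genes. VDAC1 and VDAC3, channels of the outer mitochondrial membrane, were lower in all shmiR155HG libraries. VDAC1 had 516.0, 512.7 and 514.8 CPM in shCtrl and 477.0, 449.0 and 459.6 CPM in shmiR155HG (log2 fold change −0.16, SE 0.033, adjusted p = 0.00133). VDAC3 had 292.6, 289.2 and 296.4 CPM against 249.4, 259.3 and 268.2 CPM (log2 fold change −0.18, SE 0.037, adjusted p = 0.00117). Under the rule of the study neither was called, since both folds were under 1.2. VDAC2, the channel that recruits BAK, had 176.9 ± 1.18 and 178.2 ± 3.19 CPM (SD, n = 3, adjusted p = 0.905). MDM2, a ubiquitin ligase, had 129.7, 121.0 and 127.3 CPM against 112.1, 113.5 and 113.6 CPM (log2 fold change −0.16, SE 0.046, adjusted p = 0.0203), and lost its call in 6 of 16 alternatives. Leaving out shCtrl replicate 1 or any 1 of the 3 shmiR155HG libraries ended the call. The enzymes that control MCL1 protein turnover, HUWE1 (adjusted p = 0.633), USP9X (adjusted p = 0.891) and FBXW7 (adjusted p = 0.394), did not pass, nor did FOXO1 (adjusted p = 0.704) and FOXO3 (adjusted p = 0.734), which induce BIM.

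**Figure D5:**
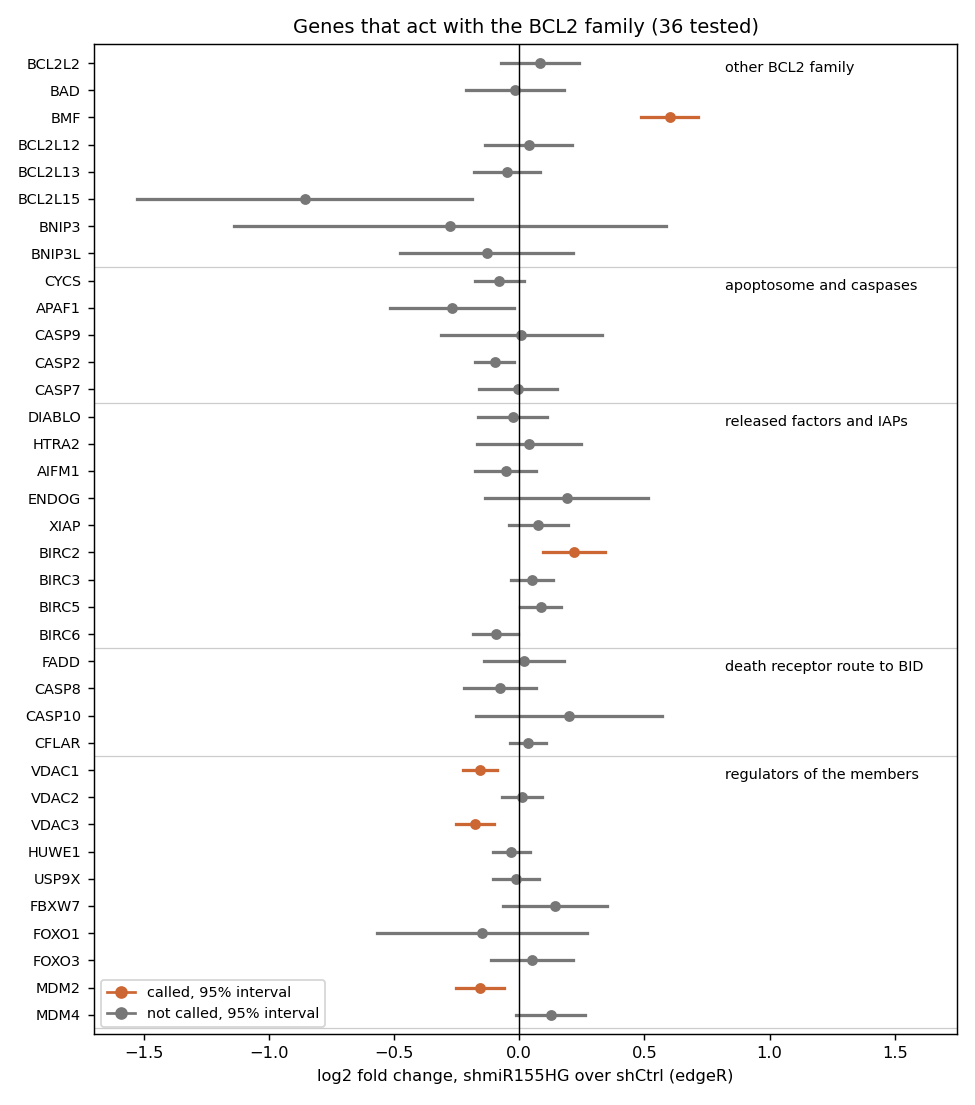
Log2 fold change of shmiR155HG over shCtrl (horizontal axis, edgeR) with 95% intervals for the 36 tested genes that act with the members, grouped by list. The 5 called genes are BMF and BIRC2 (higher) and VDAC1, VDAC3 and MDM2 (lower), and BMF has the largest difference among them.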

How the data were processed

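Whole-number counts per gene were deposited by the authors for all 6 libraries, without normalization. Per the labels, mRNA was isolated on oligo(dT) beads and sequenced as paired ends. Alignment was with HISAT2 to hg38, StringTie quantified reference transcripts, and the authors made the count table with prepDE.py3, which derives counts from coverage and an assumed read length. That length, the annotation release and strand use are not given in the sources used here. Counts sum all splice forms of a gene, and columns left unmapped numbered 0.

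Tests were run with edgeR 4.0.16 in R 4.3.3 (TMM scaling, genes over 1 CPM in at least 2 libraries, robust quasi-likelihood test, Benjamini-Hochberg adjustment over all 12263 genes, adjusted p under 0.05, no replicate block). Common biological variation came to 8.71% (coefficient of variation). Replicates of a group differed by more than sampling noise. CPM values are TMM-normalized, and counting error is covered only for reads, not molecules. Alternatives covered scaling (DESeq2 1.42.0 size factors, total counts), filter, halved counts, replicate block, the exact test of the study (P under 0.01, fold over 1.2), DESeq2, limma-voom (limma 3.58.1) and each library left out; a GC correction was added after the data were seen. The named genes were all 10 members, MIR155HG, up to 5 called pathway genes per direction with no overlap, and the 3 genes with the pattern nearest to the called member with the largest change; other pathway genes were named after their values were seen. The members and lists were chosen with earlier results of these data known. Positions and lengths are from GENCODE for hg38. Some genes of the pathway lists are not reported here and were left out of the lists' counts.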

Additional observations from a re-analysis of the deposited data

How the results depend on the processing

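MCL1 kept its direction in all 16 alternatives. Under the exact test and fold rule of the study, 0 members were higher, 1 pathway gene was higher (BMF) and 1 lower (BCL2L15), and 552 and 467 of all genes were higher and lower. This rule changes the test, the threshold on p and the fold together. The study itself reported more genes in each direction, so this re-run of its rule did not reproduce its counts. Leaving out 1 library gave 1 to 2 members higher (2 without shCtrl replicate 1, MCL1 and BBC3) and 0 to 1 lower (PMAIP1 without shCtrl replicate 3), 1 to 2 pathway genes higher (1 without shCtrl replicate 3 or shmiR155HG replicate 2 or 3) and 580 to 891 genes of all higher (580 without shmiR155HG replicate 2). The GC correction gave 1 member lower (BAX), and under it BAK1 turned to a log2 fold change of −0.030. BCL2 lay between −0.032 and 0.042 with a library left out and was below 0 without shCtrl replicate 2 (−0.032) or shmiR155HG replicate 1 (−0.015). The causes were not tested. No shared deviation was seen between samples of the same replicate number (correlations of deviations −0.0179, 0.000983 and 0.00348). With 3 libraries per group, this cannot show whether such samples were handled together. With the replicate block, 829 genes were higher and 909 lower, and 1 member was higher and 0 lower, as without it. At 6 to 73 counts per library, BCL2A1, BBC3 and MIR155HG are limited by depth.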
